A study of Mus musculus with 6 samples.

Results

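Complex I (NADH:ubiquinone oxidoreductase) is the largest enzyme of the respiratory chain. The genes described here are the rows of the deposited table whose symbol begins with NDUF, together with ACAD9, ECSIT, TMEM126B and NUBPL. They number 48 of 14915 gene symbols. Of these, 35 encode subunits of the complex, 11 encode assembly factors, and NDUFA4 and NDUFA4L2 carry the family name but are not counted as complex I subunits. RNA-seq was made of B16F10, a mouse melanoma cell line, in 3 wild-type (WT) libraries and 3 libraries of cells whose ZBTB5, a BTB and zinc finger transcription factor, carries the substitution S127A, so that this serine cannot be phosphorylated. Both groups were treated with TNFα, an inflammatory cytokine, under amino acid limitation, and no untreated libraries were analysed here. The series asks how this phosphorylation bears on mTORC1 activation by inflammation. Whether the S127A cells are 1 clone, and whether replicates are separate cultures, is not given in the sources used here, so p-values measure only the spread between these libraries, which may be technical.

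Complex I takes electrons from NADH in the mitochondrial matrix, passes them along iron-sulfur clusters to ubiquinone, and pumps protons across the inner membrane. It is L-shaped. The matrix arm holds the N module, which oxidises NADH, and the Q module, which reduces ubiquinone, and the membrane arm has a proximal and a distal part that pump. The core subunits are shared with bacteria and are encoded partly in the nucleus and partly in mitochondrial DNA, supernumerary subunits surround them, and assembly factors build the modules and then leave. The 7 ND genes of mitochondrial DNA, NDUFS5, NDUFB1 and NDUFAF8 were not analysed here. In bulk RNA, fewer cells of a type and less RNA per cell cannot be told apart.

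The libraries labelled S127A differed from WT in far more than these genes. ZBTB5 itself held 15.5 ± 0.540 TPM in WT and 8.90 ± 0.569 TPM in S127A (here and below, ± is the SD of 3 libraries), a level that does not check the substitution. The 10 melanocyte markers summed to 15408 to 15705 TPM in WT and to 27.8 to 33.3 TPM in S127A, so the labelled melanoma identity is nearly absent from the S127A libraries, although none of these markers was at 0 in all 3 of them. Sums in S127A against WT were 301 to 313 against 16.2 to 17.2 TPM for 10 fibroblast markers, with LUM and THY1 at 0 in S127A. Most of the S127A sum was COL1A2 (means of 1.41 TPM in WT and 275 TPM in S127A), while POSTN, the highest of these markers in WT, was lower in S127A (7.79 and 0.0667 TPM). The sums were 48.6 to 51.7 against 7.35 to 8.28 TPM for the 7 of 10 immune markers listed, with CD14 at a mean of 0 in WT and 45.1 TPM in S127A, while CD68, most of the WT sum, was lower in S127A (7.64 and 4.69 TPM). They were 63.4 to 63.8 against 0.08 to 0.32 TPM for 4 of 5 epithelial markers, of which KRT18 held a mean of 62.8 TPM in S127A, and at most 1.68 TPM for 5 endothelial markers. The part of these differences in the results below was not tested, and a difference between genotypes and one between the cells of the 2 sets of libraries cannot be told apart. TPM, a transcript abundance, divides reads by gene length and library total, so it allows levels of different genes to be compared, but it keeps no depth, and the depth of each library is unknown.

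Most complex I genes were lower in the libraries labelled S127A. Of all 10348 genes tested, 90.0% passed in either direction, so passing is the common outcome here. Of 47 genes that reached a mean of 1 TPM and were tested, 42 were lower (89.4%), against 49.8% of all genes tested, and 4 were higher (8.5%), against 40.2% of all genes. At least 2-fold lower were 20 of the 47 (42.6%), against 19.9% of all genes, and none was 2-fold higher, against 15.5% of all genes. Genes were called at a limma adjusted p under 0.05, on log2(TPM + 1), as S127A minus WT, a scale that understates the change of low genes. The median log2 difference was −0.74 over the 47 and −0.12 over all genes. Scaling with TMM factors, which centre the bulk of genes, moved the median of all genes to 0.00 and that of the complex I genes to −0.62. Each fall of a complex I gene was smaller on that scale. Whether the shift of the whole table is technical was not tested. With those factors 39 were lower and 5 higher, against 44.8% and 44.9% of all genes.

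The 4 genes that rose, NDUFA7, NDUFA2, NDUFA6 and NDUFV1, all belong to the N module, and 6 other N module genes fell. The 6 Q module genes and the 8 proximal membrane arm genes all fell, as did 10 of 11 genes of the distal membrane arm, where NDUFB9 did not pass. The 11 assembly factors fell, by less. In the groups of libraries, values did not overlap for 42 genes lower and 4 genes higher in S127A, and such separation was found for 49.8% of all genes downward and 40.4% upward, which leaves NDUFB9 as the tested gene with overlap. Replicates were close, with a median coefficient of variation of 3.83% in WT and 3.70% in S127A and a largest value of 12.3%.

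**Figure D1:**
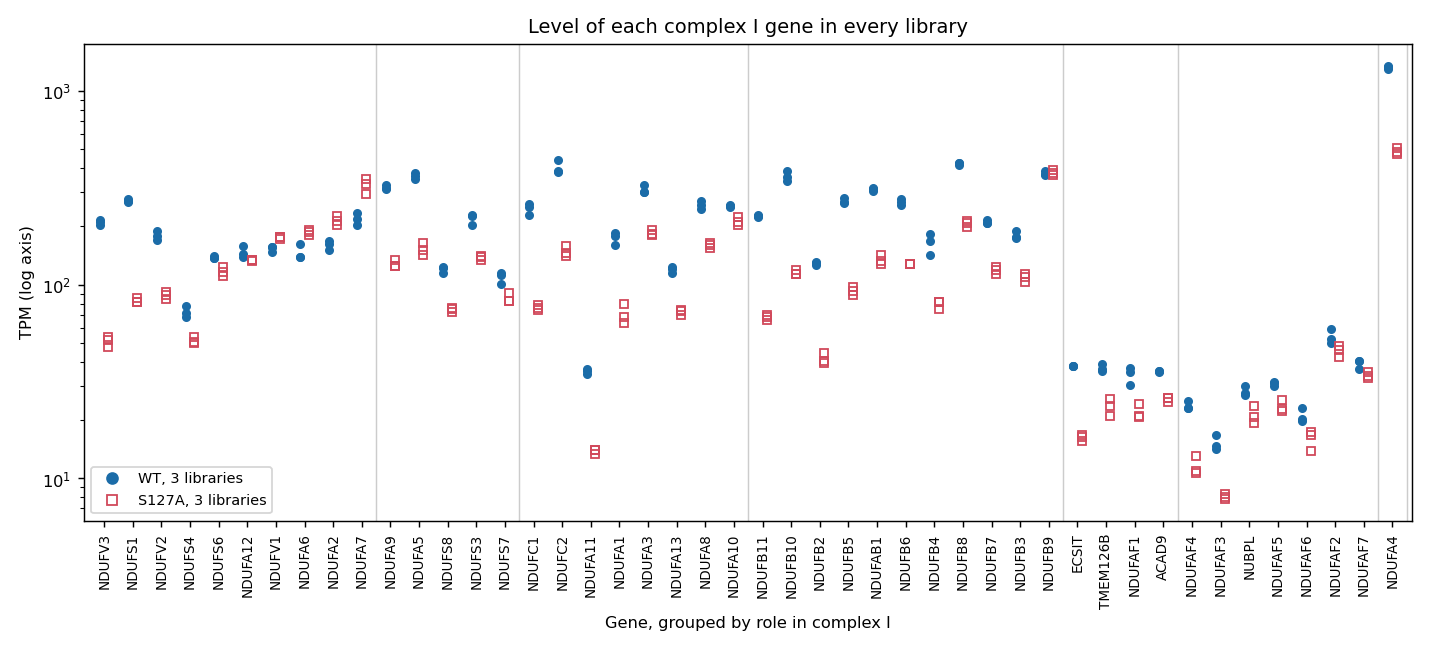
TPM on a log axis of 46 tested genes in each library, with WT as filled circles and S127A as open squares, in the order N module, Q module, proximal and distal membrane arm, MCIA assembly complex, other assembly factors and NDUFA4. The open squares lie below the circles in 41 genes and above them in NDUFV1, NDUFA6, NDUFA2 and NDUFA7, and both overlap in NDUFB9.

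The N module is where NADH is oxidised, and its genes moved apart. NDUFV1 (chromosome 19, 4007384 to 4012806, minus strand, mm10) encodes the core subunit that binds NADH and the flavin cofactor FMN. It held 148, 157 and 157 TPM in the WT libraries and 172, 176 and 176 TPM in the S127A libraries. The S127A libraries were all above the WT libraries by a small margin (log2 change 0.18 with an SE of 0.0332, adjusted p = 0.000339). NDUFV2 (chromosome 17, 66078638 to 66101559, minus strand), the iron-sulfur core subunit that sits against NDUFV1, went the other way. It held 189, 171 and 178 TPM in the WT libraries and 92.2, 88.3 and 84.3 TPM in the S127A libraries, with no overlap (log2 change −1.01 with an SE of 0.0447, adjusted p = 2.00e-09). NDUFS1, the largest core subunit, carries the next iron-sulfur clusters of the chain. It held 269.6, 268 and 276 TPM in the WT libraries and 85.1, 81.2 and 81.3 TPM in the S127A libraries, so S127A kept 30.4% of the WT mean (log2 change −1.71 with an SE of 0.0316, adjusted p = 1.50e-12).

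NDUFV3 (chromosome 17, 31520115 to 31531331, plus strand), a small supernumerary subunit beside the flavoprotein pair, fell most of all 47 genes. Its libraries held 212, 216 and 204 TPM in the WT libraries and 47.7, 51.7 and 53.8 TPM in the S127A libraries, and S127A kept 24.3% of the WT mean (log2 change −2.02 with an SE of 0.0452, adjusted p = 6.63e-12). Of the other supernumerary genes of the module, 3 rose. NDUFA7 (chromosome 17, 33824572 to 33838317, plus strand) held 234, 218 and 203 TPM in the WT libraries and 294, 351 and 331 TPM in the S127A libraries (log2 change 0.57 with an SE of 0.0651, adjusted p = 7.47e-06). NDUFA2 (chromosome 18, minus strand), a thioredoxin-fold subunit, held 152, 168 and 163 TPM in the WT libraries and 204, 226 and 214 TPM in the S127A libraries (log2 change 0.41 with an SE of 0.0461, adjusted p = 6.39e-06). NDUFA6, a subunit of the LYR family that binds the acyl carrier protein, held 162, 139 and 138 TPM in the WT libraries and 181, 192 and 187 TPM in the S127A libraries (log2 change 0.35 with an SE of 0.0566, adjusted p = 0.000135). In each of these genes the lowest S127A library exceeded the highest WT library, as it did for 40.4% of all genes tested. The rises were 1.49-fold, 1.33-fold and 1.27-fold in mean TPM, and that of NDUFV1 1.14-fold.

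NDUFA12, which takes the place of the assembly factor NDUFAF2 late in assembly, changed least in the module. It held 158, 139.5 and 145 TPM in the WT libraries and 134, 134 and 132 TPM in the S127A libraries (log2 change −0.14 with an SE of 0.0439, adjusted p = 0.0103), but it did not pass when libraries were rescaled by TMM (−0.02, adjusted p = 0.635), by quantiles (adjusted p = 0.996) or to a common total (−0.09, adjusted p = 0.0786). NDUFS4 and NDUFS6, accessory subunits at the junction of the N module, fell from 72.4 ± 4.64 to 51.4 ± 1.80 TPM and from 139 ± 1.97 to 117 ± 6.25 TPM. Over the 10 genes of the module, 4 were higher and 6 lower (60.0%), with a median log2 difference of −0.19. These values lie near the shares (40.2% higher, 49.8% lower) and the median (−0.12) of all genes. The other 25 subunits had 24 lower, 0 higher at an adjusted p under 0.05 by limma (1 with TMM factors, NDUFB9), and a median of −1.06. Whether the N module differs from the other modules was not tested.

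Ratios of TPM within a library do not depend on scaling between libraries, and the following pairs were chosen after their values were seen. The NDUFV1 to NDUFV2 ratio was 0.784, 0.922 and 0.882 in WT and 1.87, 1.99 and 2.09 in S127A. The flavoprotein pair therefore stood near equal levels in WT, whereas S127A libraries held more NDUFV1 than NDUFV2. The NDUFV1 to NDUFS1 ratio was 0.568 ± 0.0191 in WT and 2.12 ± 0.0819 in S127A (SD, n = 3). The NDUFA7 to NDUFV3 ratio was 1.04 ± 0.0586 in WT and 6.37 ± 0.369 in S127A. As a share of the summed TPM of the 35 subunits, the N module was 21.4% ± 0.151 in WT and 31.1% ± 0.546 in S127A. Its own sum fell, from 1699 ± 37.5 to 1425 ± 37.2 TPM (83.85% of WT), while the other modules kept 49.5% to 52.1%. The 7 nuclear core subunits, which include NDUFV1, NDUFV2 and NDUFS1 of the N module, held shares of 17.98% ± 0.389 and 17.7% ± 0.046.

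**Figure D2:**
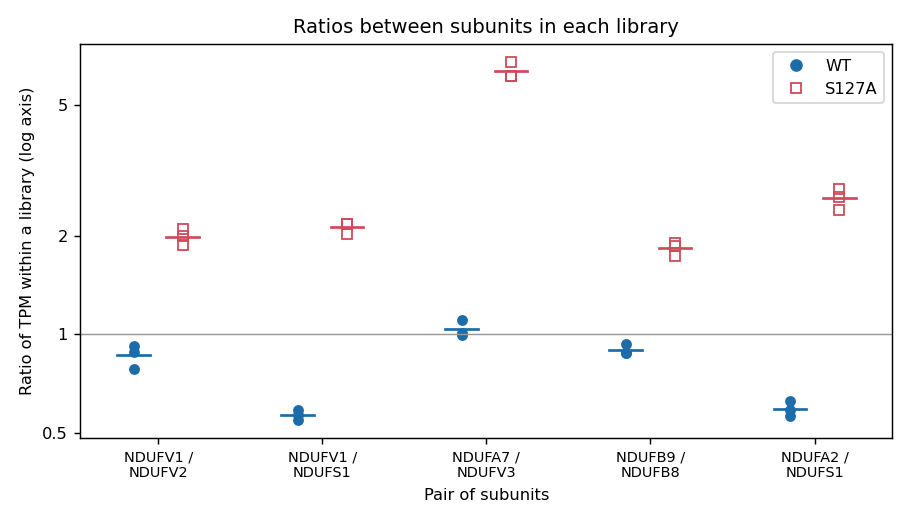
Ratio of TPM between subunits in each library on a log axis, with WT as filled circles, S127A as open squares and the mean as a bar. The NDUFV1 to NDUFV2 ratio lies under 1 in the 3 WT libraries and between 1.87 and 2.09 in S127A, and the NDUFA7 to NDUFV3 ratio is the widest apart of the pairs drawn.

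The stretches before the starts of these divergent genes are shown because the flavoprotein pair and the largest rise and fall sit in 1 module. They come from RefSeq promoter windows (GRCm38.p6, the build of mm10) of 250 bases before to 50 after each start, which matched 41 of 48 genes, and only bases before both the RefSeq and the GENCODE start are printed, on the gene's strand. Capitals mark matches to the motifs searched on both strands.
NDUFV1 (chr19:4012807-4013005, minus strand): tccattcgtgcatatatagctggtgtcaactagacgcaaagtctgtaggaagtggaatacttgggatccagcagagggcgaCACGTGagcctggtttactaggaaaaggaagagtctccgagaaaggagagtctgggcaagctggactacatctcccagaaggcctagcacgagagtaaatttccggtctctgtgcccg
NDUFV2 (chr17:66101560-66101809, minus strand): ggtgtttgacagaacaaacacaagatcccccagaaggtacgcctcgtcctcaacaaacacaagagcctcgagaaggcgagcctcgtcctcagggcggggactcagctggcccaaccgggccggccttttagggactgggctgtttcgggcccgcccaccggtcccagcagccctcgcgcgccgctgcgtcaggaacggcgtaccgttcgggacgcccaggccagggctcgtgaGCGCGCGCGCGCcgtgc
NDUFA7 (chr17:33824322-33824571, plus strand): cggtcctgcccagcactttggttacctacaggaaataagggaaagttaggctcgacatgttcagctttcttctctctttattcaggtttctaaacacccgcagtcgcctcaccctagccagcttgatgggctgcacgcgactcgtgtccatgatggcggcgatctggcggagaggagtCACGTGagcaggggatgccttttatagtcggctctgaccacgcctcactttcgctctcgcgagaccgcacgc
NDUFV3 (chr17:31519865-31520114, plus strand): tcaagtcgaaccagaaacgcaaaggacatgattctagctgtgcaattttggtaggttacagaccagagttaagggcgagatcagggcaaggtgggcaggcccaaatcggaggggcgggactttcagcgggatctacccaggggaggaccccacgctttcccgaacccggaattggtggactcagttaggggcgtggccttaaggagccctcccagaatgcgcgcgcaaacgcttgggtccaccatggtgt
The capitals in NDUFV1 and NDUFA7 are CACGTG, the E-box read by MYC, USF and MITF/TFE family factors. They lie 169 and 72 bases before the RefSeq start of the window shown. NDUFA7 has another RefSeq window, and the same CACGTG lies 145 bases before its start. Those in NDUFV2 are overlapping matches of a relaxed site of NRF1, a regulator of nuclear genes for mitochondria, with any bases at the 2 central positions. The NDUFV3 window held no match.

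The same motifs were counted in the other windows, as a description. The 41 genes had 43 windows, and in 39 of these, bases 6 to 35 after the start lay in a transcript of the gene. CACGTG was in 4 of 41 complex I genes (9.8%) and in 12.2% of 7929 tested genes with a window. The 4 were NDUFA7 and NDUFV1 among the 3 higher genes with a window, and NUBPL and TMEM126B among the 38 lower ones, an imbalance noticed after the values were seen and not tested. The relaxed NRF1 site was in 10 of 41 genes (24.4%) against 16.1% of tested genes, and the strict site, each match of which also matches the relaxed one, was in NDUFA11, NDUFAF4 and NDUFAF5 (7.3% against 2.5%). CCGGAAG, the core bound by ETS factors such as GABPA, was in 14.6% against 21.0%, and the cyclic AMP element TGACGTCA in 9.8% against 3.8%. The nuclear receptor site TCAAGGTCA read by ERRα was in 0 of 41 genes and in 0.3% of tested genes with a window. Over all 32851 windows the shares were 7.2% for CACGTG, 6.2% and 1.0% for the relaxed and the strict NRF1 site, 8.9% for CCGGAAG, 1.8% for TGACGTCA and 0.4% for TCAAGGTCA.

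AAGATGGC, the core of the site of the zinc finger factor YY1, was in 8 of 41 genes (19.5%), against 5.6% of tested genes and 2.7% of all windows. The 8 were among the 38 lower genes with a window. Only 3 higher genes had a window, too few to read a link with direction. The first base of AAGATGGC lay at positions 18 to 39, counted from 1 at the RefSeq start. These sites are shown, with the match in capitals, because they recur at 1 place in genes of 5 roles.
NDUFS7 (chr10:80249462-80249491, plus strand): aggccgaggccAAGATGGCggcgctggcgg
NDUFA9 (chr6:126849097-126849126, minus strand): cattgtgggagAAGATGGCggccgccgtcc
NDUFS4 (chr13:114388045-114388074, minus strand): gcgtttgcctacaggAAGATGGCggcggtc
NDUFS6 (chr13:73328433-73328462, minus strand): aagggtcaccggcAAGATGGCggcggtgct
NDUFA3 (chr7:3617384-3617413, plus strand): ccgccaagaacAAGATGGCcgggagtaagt
NDUFC1 (chr3:51408915-51408944, minus strand): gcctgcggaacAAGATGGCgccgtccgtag
NDUFB8 (chr19:44555393-44555422, minus strand): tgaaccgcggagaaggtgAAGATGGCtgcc
TMEM126B (chr7:90475960-90475989, minus strand): cgtgaggcgctAAGATGGCggcgtcccagc
The ATG inside the match was an annotated start codon of the gene in 8 of 8 cases (GENCODE vM21), so the letters also spell the first codons of these proteins. A match in any of these windows is a run of letters and was not shown here to be bound.

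The Q module, where ubiquinone is reduced, fell in 6 of 6 genes with a median log2 change of −0.92. Of all genes tested, 49.8% were lower, with a median over all of −0.12. The supernumerary genes NDUFA9, of the short-chain dehydrogenase fold, and NDUFA5 fell most. NDUFA9 held 317, 328 and 314 TPM in the WT libraries and 134, 125 and 125 TPM in the S127A libraries (log2 change −1.31 with an SE of 0.0366, adjusted p = 4.02e-11). NDUFA5 held 377, 350.5 and 365 TPM in the WT libraries and 165, 152 and 143 TPM in the S127A libraries (log2 change −1.24 with an SE of 0.0491, adjusted p = 7.59e-10). In both genes the S127A libraries kept 40.1% to 42.1% of the WT mean. The smaller falls were in core subunits. NDUFS3 held 230.4, 204 and 225 TPM in the WT libraries and 140.4, 139 and 135 TPM in the S127A libraries (log2 change −0.66 with an SE of 0.0448, adjusted p = 7.94e-08), and NDUFS8 115, 123 and 123 TPM in the WT libraries and 72.7, 76.2 and 75.0 TPM in the S127A libraries (log2 change −0.68 with an SE of 0.0372, adjusted p = 1.24e-08). NDUFS7, which carries the last cluster before ubiquinone, fell least and held 102, 113 and 115 TPM in the WT libraries and 82.1, 90.2 and 82.9 TPM in the S127A libraries (log2 change −0.36 with an SE of 0.0529, adjusted p = 5.96e-05). The groups of these 5 genes did not overlap, a separation found downward for 49.8% of all genes tested.

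Among the 8 genes of the proximal membrane arm, which joins the matrix arm, 8 fell, against 49.8% of all genes tested. Their median log2 change was −1.02, against −0.12 over all genes. NDUFC1 and NDUFC2, small membrane subunits, fell most. NDUFC1 held 261, 251 and 229.8 TPM in the WT libraries and 78.8, 75.5 and 74.2 TPM in the S127A libraries (log2 change −1.68 with an SE of 0.0465, adjusted p = 3.78e-11). NDUFC2, the second most abundant subunit transcript in WT, held 439.6, 386 and 383 TPM in the WT libraries and 158, 141 and 145 TPM in the S127A libraries (log2 change −1.44 with an SE of 0.0578, adjusted p = 9.08e-10) and was rank 12 in S127A. NDUFA11, the lowest of the 35 subunits in both groups, held 34.8, 37.0 and 35.7 TPM in the WT libraries and 13.4, 14.0 and 14.1 TPM in the S127A libraries (log2 change −1.31 with an SE of 0.0470, adjusted p = 3.32e-10). NDUFA10, a subunit with a nucleoside kinase fold, fell least and held 259, 254 and 251 TPM in the WT libraries and 212, 223 and 204 TPM in the S127A libraries (log2 change −0.26 with an SE of 0.0357, adjusted p = 3.66e-05). Its libraries were separated by a narrow margin, while those of NDUFC1 and NDUFC2 were more than 2-fold apart. NDUFA1 (X-linked), NDUFA3, NDUFA13 (also known as GRIM-19) and NDUFA8 lay between, with log2 changes from −1.30 to −0.68.

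The distal membrane arm, the outer proton-pumping part, had 10 of 11 genes lower, against 49.8% of all genes tested. Its median log2 difference was −1.06, against −0.12 over all genes. NDUFB11 (chromosome X, 20615326 to 20617619, minus strand) held 229, 223 and 227 TPM in the WT libraries and 65.8, 68.3 and 69.5 TPM in the S127A libraries (log2 change −1.72 with an SE of 0.0321, adjusted p = 1.55e-12). NDUFB10 held 345, 386 and 362 TPM in the WT libraries and 114, 119.9 and 113 TPM in the S127A libraries (log2 change −1.65 with an SE of 0.0425, adjusted p = 2.12e-11), and NDUFB2 130.2, 132 and 126.9 TPM in the WT libraries and 39.3, 40.5 and 44.2 TPM in the S127A libraries (log2 change −1.63 with an SE of 0.0449, adjusted p = 3.78e-11). These 3 kept 29.96% to 31.9% of their WT means. NDUFB5, NDUFAB1, NDUFB6, NDUFB4, NDUFB8, NDUFB7 and NDUFB3 had log2 changes from −1.53 to −0.72. NDUFAB1, the mitochondrial acyl carrier protein that also serves fatty acid and lipoic acid synthesis, fell from 311 ± 6.75 to 135 ± 6.73 TPM.

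NDUFB9 (chromosome 15, 58933756 to 58939488, plus strand), a LYR-family subunit of the same arm, stood apart from its neighbours. It held 372, 371 and 387 TPM in the WT libraries and 379, 391 and 369 TPM in the S127A libraries. The groups overlapped, and the log2 difference of 0.01 did not pass (SE 0.0314, adjusted p = 0.751). Rescaling by TMM made it pass as higher (0.13, adjusted p = 0.00238), and so did quantiles (0.10, adjusted p = 0.0133), where 45.0% of all genes passed as lower and 44.6% as higher. Over 17 alternatives its adjusted p lay between 0.00238 and 0.982. The NDUFB9 to NDUFB8 ratio, free of scaling, was 0.879, 0.875 and 0.932 in WT and 1.90, 1.87 and 1.74 in S127A. NDUFB9 was the third most abundant subunit transcript in WT and the first in S127A, where NDUFA7 and NDUFA2 followed it. A same-strand gene model, Gm49356, shares exon sequence with NDUFB9, and how reads were divided between them is not given in the sources used here.

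**Figure D3:**
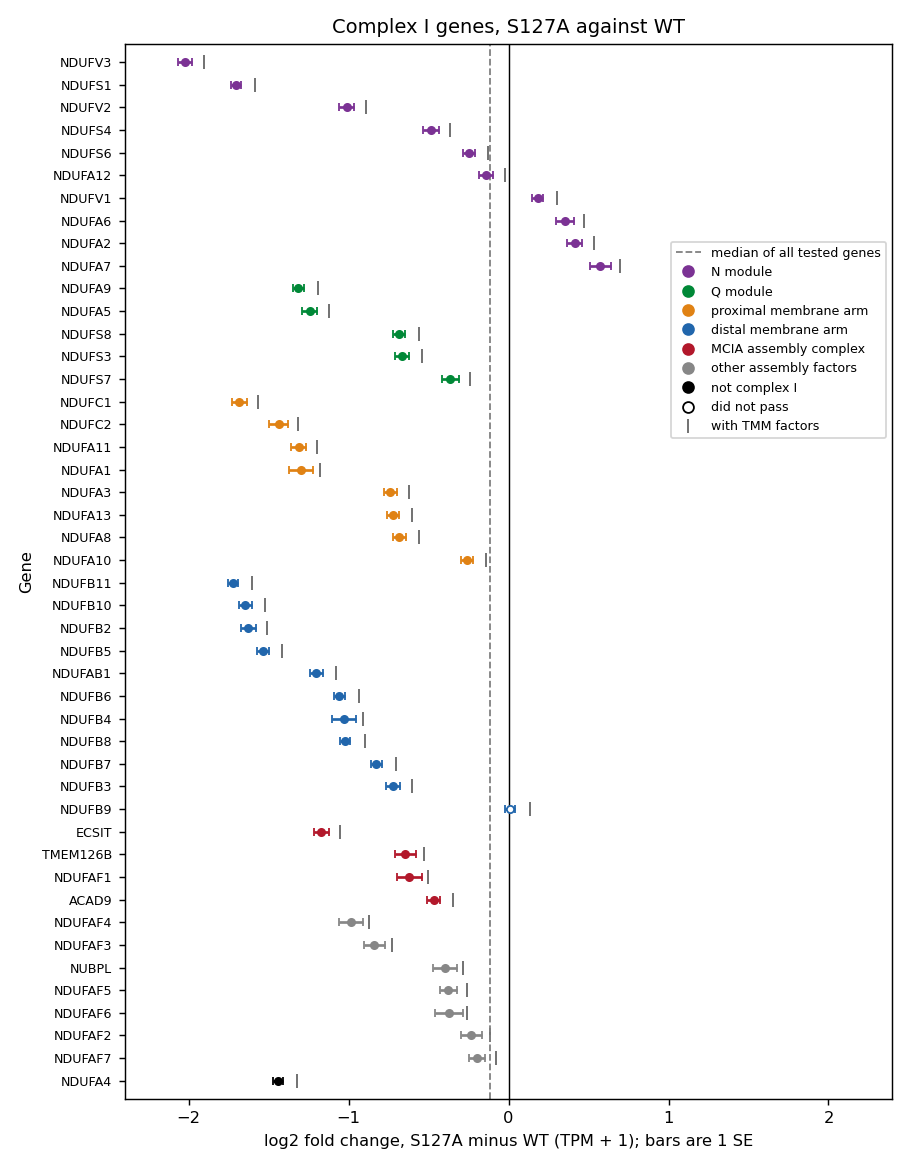
Log2 fold change of TPM + 1, S127A minus WT, with 1 SE, for 46 tested genes, coloured by role, with grey ticks for TMM factors and a dashed line at the median of all tested genes (−0.12). Points run from −2.02 in NDUFV3 to 0.57 in NDUFA7, and the 4 filled points right of 0 are N module genes. NDUFB9 is the open point, and its grey tick lies at 0.13.

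The 4 listed members of the MCIA complex, which assembles the membrane arm, were lower, with a median log2 change of −0.63. Of all genes tested, 49.8% were lower. Not all factors tied to MCIA are in the list. Of 2 outside it, TIMMDC1 was lower (45.6 ± 3.16 TPM in WT and 28.5 ± 0.768 TPM in S127A). The other, TMEM186, did not pass (15.9 ± 1.29 TPM in WT and 17.3 ± 0.383 TPM in S127A, limma adjusted p = 0.0903). Among the 4 listed members ECSIT, first described as a signalling adaptor in Toll and BMP pathways, fell most. It held 37.9, 37.9 and 37.9 TPM in the WT libraries and 15.7, 16.5 and 16.8 TPM in the S127A libraries (log2 change −1.17 with an SE of 0.0448, adjusted p = 5.87e-10). ACAD9, an acyl-CoA dehydrogenase relative, held 35.7, 35.9 and 35.7 TPM in the WT libraries and 26.1, 24.8 and 25.9 TPM in the S127A libraries (log2 change −0.47 with an SE of 0.0415, adjusted p = 8.93e-07). The 2 transcripts stood near equal levels in WT, with an ECSIT to ACAD9 ratio of 1.06 ± 0.00433, and at 0.637 ± 0.0332 in S127A. TMEM126B held 38.8, 36.0 and 36.8 TPM in the WT libraries and 25.7, 23.6 and 21.1 TPM in the S127A libraries (log2 change −0.65 with an SE of 0.0664, adjusted p = 3.23e-06). NDUFAF1 held 35.5, 30.2 and 37.3 TPM in the WT libraries and 24.2, 20.7 and 21.0 TPM in the S127A libraries (log2 change −0.62 with an SE of 0.0810, adjusted p = 2.47e-05). None of the 4 listed members overlapped between groups, a separation found downward for 49.8% of all genes tested.

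The other 7 assembly factors fell, against 49.8% of all genes tested. Their median log2 change was −0.38, against −0.12 over all genes. NDUFAF4 and NDUFAF3, partners in building the Q module, fell most. NDUFAF4 held 25.1, 23.1 and 23.1 TPM in the WT libraries and 13.0, 10.9 and 10.7 TPM in the S127A libraries (log2 change −0.99 with an SE of 0.0745, adjusted p = 2.15e-07), and NDUFAF3 14.6, 14.3 and 16.8 TPM in the WT libraries and 8.29, 7.84 and 8.05 TPM in the S127A libraries (log2 change −0.84 with an SE of 0.0680, adjusted p = 4.08e-07). Values of both NDUFAF4 and NDUFAF3 were well apart between groups. Enzymes that modify Q module subunits changed less. NDUFAF5, which hydroxylates NDUFS7, held 29.9, 31.0 and 31.4 TPM in the WT libraries and 25.3, 22.3 and 22.9 TPM in the S127A libraries (log2 change −0.38 with an SE of 0.0541, adjusted p = 5.46e-05). NDUFAF7, a methyltransferase, held 40.6, 36.8 and 40.3 TPM in the WT libraries and 33.7, 33.1 and 35.5 TPM in the S127A libraries (log2 change −0.20 with an SE of 0.0501, adjusted p = 0.00352). In both enzymes the lowest WT library exceeded the highest S127A library. NUBPL, which delivers iron-sulfur clusters to the complex, held 27.0, 27.6 and 30.1 TPM in the WT libraries and 23.7, 19.3 and 20.8 TPM in the S127A libraries (log2 change −0.40 with an SE of 0.0729, adjusted p = 0.000349). NDUFAF6, a factor of early assembly, held 20.2, 19.8 and 23.2 TPM in the WT libraries and 13.9, 16.8 and 17.5 TPM in the S127A libraries (log2 change −0.37 with an SE of 0.0867, adjusted p = 0.00184). NDUFAF2, the chaperone related to NDUFA12, held 52.2, 58.9 and 50.02 TPM in the WT libraries and 46.3, 48.0 and 42.2 TPM in the S127A libraries (log2 change −0.23 with an SE of 0.0652, adjusted p = 0.00594). These 3 genes did not overlap between groups either, and such separation was found downward for 49.8% of all genes tested. With TMM factors NDUFAF7 (−0.08, adjusted p = 0.153) and NDUFAF2 (−0.11, adjusted p = 0.128) did not pass.

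Assembly factor transcripts were scarce beside those of the subunits, at means of 15.2 to 53.7 TPM in WT against 35.8 to 421 TPM for subunits, and 8.06 to 45.5 against 13.8 to 379.5 TPM in S127A. The summed TPM of the 11 factors was 357 ± 5.49 in WT and 247 ± 7.40 in S127A (69.3%), and that of the 35 subunits 7929 ± 119 and 4583 ± 72.2 (57.8%). Among the subunits the order of levels changed between the groups, with a Spearman correlation of 0.508 between their WT and S127A means over 35 genes of the same libraries. By rank from the most abundant, NDUFB8 was 1 in WT and 5 in S127A, NDUFS1 was 10 and 25, and NDUFV1 was 26 and 8. The spread of levels between subunits widened from an SD of 0.75 to 0.896 on the log2 TPM scale. Over the 47 genes the log2 change had a Spearman correlation of −0.10 with the length of the longest transcript, a description across genes that share their libraries.

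NDUFA4, now known as a subunit of complex IV, was the most abundant gene of the list. It held 1338, 1353 and 1298 TPM in the WT libraries and 506, 475 and 487 TPM in the S127A libraries (log2 change −1.44 with an SE of 0.0314, adjusted p = 5.33e-12). NDUFA4L2, its hypoxia-induced relative, lay below the filter, with 0.130, 0.230 and 0 TPM (WT) and 0.130, 0.520 and 0.650 TPM (S127A), and no test was made. The gene models of NDUFB2 and NDUFB8 share exon sequence with other coding models on their strand (Gm42420 and Gm20538), ACAD9 with Gm43079, and 18 of the 48 with a gene on the other strand, NDUFA2 with Tmco6 and NDUFS1 with Eef1b2 among them. NDUFB11 and NDUFS3 have a processed pseudogene at 95% identity or more over at least 50% of the transcript. Values of these genes are uncertain to the extent that such reads were shared.

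Complex I factors outside the list went the same way for 6 of 8 genes tested (75.0%, against 49.8% of all genes). By limma 0 were higher, against 40.2% of all genes. With TMM factors 5 were lower and 2, TMEM186 and AIFM1, higher, against 44.8% and 44.9% of all genes. CHCHD4, which imports and oxidises cysteine-rich subunits, fell from 119 ± 3.61 to 53.1 ± 1.75 TPM, FOXRED1 from 51.7 ± 1.03 to 24.8 ± 0.638 TPM and TMEM70 from 83.3 ± 3.70 to 40.6 ± 1.23 TPM. AIFM1, the partner of CHCHD4, had means of 90.3 ± 3.98 TPM (WT) and 91.8 ± 3.41 TPM (S127A), adjusted p = 0.615. Of 15 genes for the assembly of iron-sulfur clusters, cofactors that the core subunits carry, 9 were lower and 4 higher, with a median log2 difference of −0.20, near the shares (49.8% lower, 40.2% higher) and the median (−0.12) of all genes. IBA57, a factor for late cluster assembly, fell from 9.92 ± 0.760 to 2.88 ± 0.208 TPM, while BOLA1 rose from 16.3 ± 1.94 to 43.6 ± 2.70 TPM. With TMM factors 7 were lower and 6 higher.

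The other respiratory complexes give a scale for the fall, and no test was made between lists. Complex II, the entry point from succinate, had 5 of 6 genes lower and a median log2 change of −1.13. Complex III had 8 of 8 lower (7 with TMM factors) and a median of −0.97, complex IV 6 of 8 and −0.57, and ATP synthase 11 of 12 and −1.13. The 35 complex I subunits had 30 lower and a median of −1.01. Of all genes tested, 49.8% were lower (44.8% with TMM factors), and their median was −0.12. In summed TPM, S127A kept 57.8% of the WT level for complex I subunits, 40.1% for complex II, 53.5% for complex III, 68.9% for complex IV and 50.3% for ATP synthase. The sets are not alike, since complex II here includes the assembly factors SDHAF1 and SDHAF2. The complex IV list includes COX7A2L, a supercomplex assembly factor, and leaves out NDUFA4. Not every symbol sought for complexes II to IV and ATP synthase was found. SDHAF2, COX7A2L and ATP5G2 were the genes of these 4 lists that rose. COX7A2L rose most (log2 change 0.76 with an SE of 0.0327, adjusted p = 1.66e-09).

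**Figure D4:**
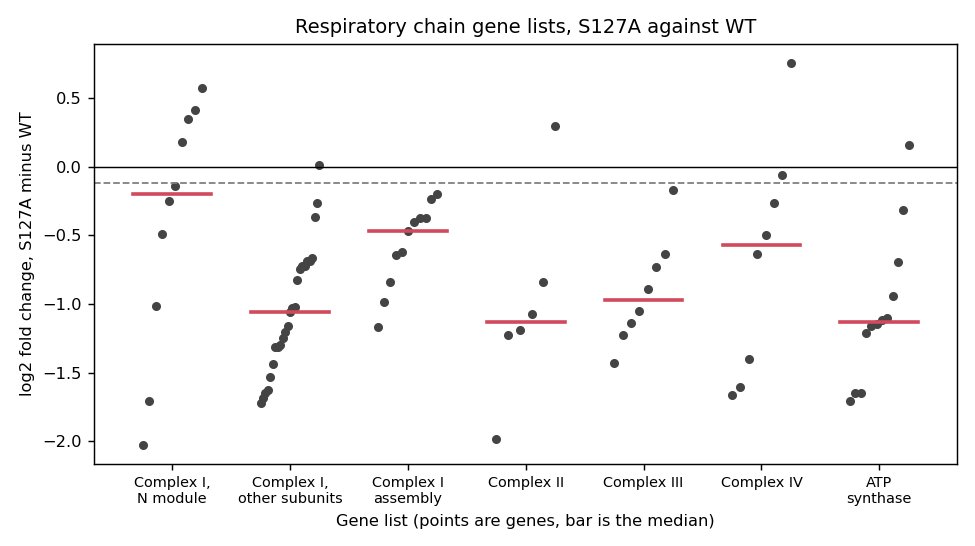
Log2 fold change of TPM + 1, S127A minus WT, of each tested gene (points) in lists of respiratory chain genes, with the list median as a bar and the median of all tested genes as a dashed line. The N module spans −2.02 to 0.57 around a median of −0.19, the other complex I subunits have a median of −1.06, and complexes II, III and IV and ATP synthase have medians from −1.13 to −0.57.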

How the data were processed

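The 6 libraries were grouped and numbered by their sample titles. RNA was extracted with TRIzol, reverse transcribed from random hexamers and sequenced by BGI, per the labels' protocols. Values are TPM, as the authors deposited them in a single table under upper-case symbols, per the file headers. The build was mm10 according to the submitters' processing notes, and the sources used here do not give the aligner, quantifier, annotation or strandedness. The table summed to 863992 ± 903 TPM for WT and 831872 ± 1326 TPM for S127A (SD, n = 3). No counting error could be given, since TPM holds no depth.

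Genes averaging at least 1 TPM were tested as log2(TPM + 1) by limma 3.58.1 in R 4.3.3 (eBayes with trend, two-sided, genotype as the only term). Adjusted p-values are limma's throughout, by Benjamini-Hochberg over 10348 genes, at 0.05. TMM factors (trimmed mean of M-values, trimming 30% of M and 5% of A) were computed on TPM to rescale libraries only. Summaries and figures used Python 3.11.15, pandas 2.3.3 and matplotlib 3.10.9. On simulated data the fit recovered 88% of changes of 0.5 log2 and 100% of changes of 1 log2. There 201 of 9733 genes were called, 13 of them falsely. In the real data 90.0% of genes passed, so the simulation does not give the error rate of these calls. Each of the 48 symbols matched 1 gene of GENCODE vM21 (mm10), and near-identical transcripts were sought with BLAST 2.17.0.

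The members and lists were chosen with earlier results of these data known. Library values are given for the nuclear core subunits, the assembly factors, the 3 largest changes and the smallest change of each other role, genes that did not pass or went against their role, and genes under 1 TPM. Other lists name up to 3 genes of largest change. A few genes that this rule names are not reported here, though counts include them. AIFM1, TMEM186, TIMMDC1, SDHAF2, ATP5G2, GPD2 and DHODH, and the ranges and means of further members, were added after their values were seen. The alternatives tried were pseudocounts (0.1 and 5), other filters (none, and a mean of 5 TPM), rescaling (TMM, quantiles, a common total), limma without trend or with robust hyperparameters, a replicate block, repeated symbols counted once, and each library left out.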

Additional observations from a re-analysis of the deposited data

How the results depend on the processing

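The count of complex I genes lower in S127A was 39 with TMM factors, 41 with quantile normalization, 41 with a common total and 42 under the other 14 alternatives, and that higher was 4 or 5. The median log2 difference of the list stayed negative under each of the 17 alternatives. It was −0.74 as reported, −0.70 with a pseudocount of 5, −0.62 with TMM factors, −0.63 with quantile normalization, −0.69 with a common total, and −0.77 to −0.73 with 1 library left out. Of 799 values of single genes under these alternatives, 790 kept direction and side of the threshold. NDUFB9 changed sign around 0, between −0.01 and 0.0308 with 1 library left out (−0.0009 without WT replicate 2, −0.01 without S127A replicate 2), and the other changes, under rescaling, stand beside NDUFB9, NDUFA12, NDUFAF2 and NDUFAF7 above. Same-numbered libraries correlated in their deviations at r = 0.117, 0.017 and 0.028 across genes, and WT replicate 2 correlated better with S127A replicate 3 (0.034), so the numbers were not taken as pairs. A replicate block left 42 complex I genes lower and 4 higher, and 5161 and 4178 of all genes. With no untreated libraries and no depths, neither a response to TNFα nor counting error can be read from these data.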

Other observations

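Genes that bring NADH and electrons to complex I and its neighbours were lower in S127A for 13 of 15 tested (86.7%, against 49.8% of all genes). Of the 15, 1 was higher, against 40.2% of all genes. The list's median log2 difference was −0.63, against −0.12 over all genes. LDHB, the lactate dehydrogenase subunit of oxidative tissues, held 243, 242 and 244 TPM in the WT libraries and 0.190, 0.210 and 0.420 TPM in the S127A libraries (log2 change −7.59 with an SE of 0.0691, adjusted p = 1.45e-14). GPD1, the cytosolic enzyme of the glycerol phosphate shuttle, fell from 29.5 ± 1.45 to 0.800 ± 0.0173 TPM, while GPD2, its mitochondrial partner that passes electrons to ubiquinone without complex I, was the 1 gene that rose (21.4 ± 0.875 to 36.3 ± 0.844 TPM). LDHA, the other main lactate dehydrogenase subunit, fell from 3235 ± 89.7 to 723 ± 14.7 TPM. DHODH, which also reduces ubiquinone, had means of 11.2 ± 0.839 TPM (WT) and 11.3 ± 0.902 TPM (S127A), adjusted p = 0.84 by limma.

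Genes of ubiquinone synthesis, which makes the electron acceptor of complex I, went both ways. Of 11 tested, 7 fell (63.6%, against 49.8% of all genes) and 4 rose (against 40.2% of all genes), and the median log2 difference was −0.53, against −0.12 over all genes. COQ7, a hydroxylase of the pathway, fell from 74.5 ± 0.266 to 27.8 ± 2.08 TPM and COQ3, a methyltransferase, from 20.9 ± 0.888 to 9.88 ± 0.575 TPM. COQ10B, a ubiquinone-binding protein, rose from 25.04 ± 1.95 to 53.0 ± 3.12 TPM. The melanocyte markers were nearly absent from the same S127A libraries, and their part in these values was not tested.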
